A study of Mus musculus with 6 samples.

Results

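Transcripts of 8 genes that build the creatine cycle and the calcium cycle of brown fat were followed in cultured mouse brown adipocytes. The genes were picked by symbol as Gatm, Gamt, Slc6a8, Ckb, Ckmt2, Alpl, Atp2a2 and Itpr1, and all 8 are among the 26214 genes listed. A count in at least 1 library was found for 7 of them, and 6 passed the filter on low counts, as did 14709 genes in all. Immortalized primary brown preadipocytes were differentiated with insulin, T3, IBMX, dexamethasone and indomethacin and then kept in insulin and T3. On day 7 they received 100 nM rotenone, an inhibitor of respiratory complex I, or DMSO, its solvent, for 16 h. All libraries come from such an immortalized culture. The sources used here do not say the strain, the sex or the number of clones.

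Creatine cycling is one of the ways in which thermogenic fat turns ATP into heat without uncoupling protein. Creatine is made in a first step by arginine:glycine amidinotransferase (Gatm), which yields guanidinoacetate, and in a second step by guanidinoacetate methyltransferase (Gamt), or is taken up by the transporter Slc6a8. Creatine kinases pass a phosphate from ATP to creatine, and tissue-nonspecific alkaline phosphatase (Alpl) removes it again, so that creatine can be phosphorylated anew. In calcium cycling, the pump SERCA2 (Atp2a2) spends ATP to move calcium into the endoplasmic reticulum (ER), and channels such as the IP3 receptor 1 (Itpr1) let it flow back. Both cycles have been described in mouse brown or beige fat.

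The 3 deposited rotenone files held the same count for every gene and were used as 1 library, so rotenone has no replicate here. The 3 DMSO libraries differed from one another by more than counting noise (chi-square per gene of 5.21 to 8.91). Total counts were 21611589 in the rotenone library and 26085061 to 29194179 in the DMSO libraries. Levels are given in CPM, which scales counts to a common library size after TMM scaling. Differences are log2 fold changes of rotenone over DMSO with their standard error. They were called at an adjusted p under 0.05 in edgeR's quasi-likelihood test over all genes, whose estimate of spread came from the DMSO libraries alone. Adipoq, a defining fat cell gene, stood at 863 CPM with rotenone and at 1111 to 1264 CPM in DMSO, and Ucp1, the uncoupling protein of brown fat, at 18.5 CPM with rotenone and 54.7 to 74.3 CPM in DMSO.

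With rotenone, Gamt, Slc6a8, Alpl and Atp2a2 were higher and Ckb was lower. Itpr1 did not pass the threshold, and Gatm and Ckmt2 were too low to be tested. Of the 6 tested members, 4 were thus called higher and 1 lower, beside 27.6% of all tested genes called higher and 28.5% called lower. On these levels the rotenone library lay above all 3 DMSO libraries for 4 members and below all 3 for 2, Ckb and Itpr1. Among all tested genes 41.5% lay above and 44.7% below, so that a position outside the DMSO range was the common case. The sizes were moderate. Gamt, at 2.35-fold, was the one member to pass 2-fold. Gamt alone kept its call when a coefficient of variation of 20% was assumed in place of the measured common value of 6.9%. At that setting 1408 of all 14709 tested genes were higher and 2063 lower.

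**Figure D1:**
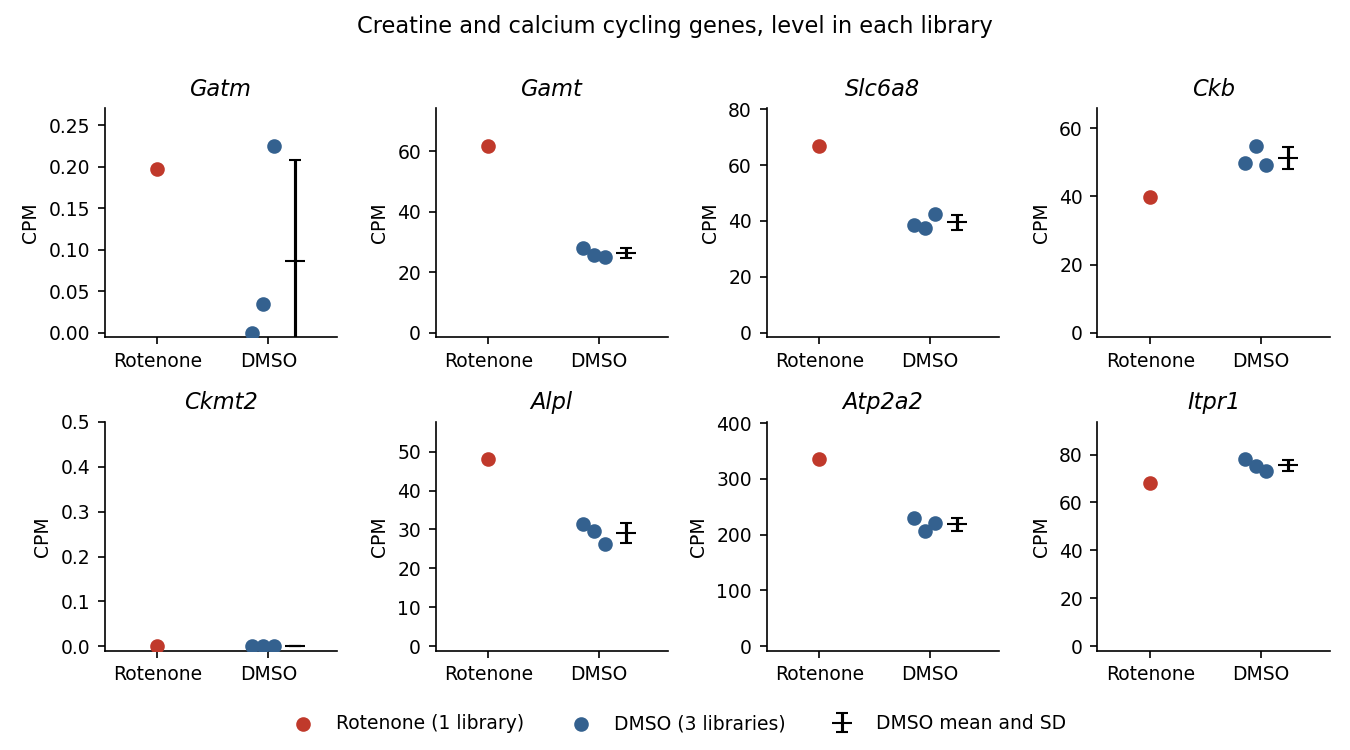
Level of each gene in CPM (vertical axis, starting at 0 and scaled per panel) in the rotenone library (red) and the 3 DMSO libraries (blue), with the DMSO mean and SD in black. The rotenone point lies above the DMSO points for Gamt, Slc6a8, Alpl and Atp2a2 and below them for Ckb and Itpr1, and all points of Ckmt2 are at 0.

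The enzymes of creatine synthesis were unequally present. Gatm (ENSMUSG00000027199.14, chromosome 2, 122594467 to 122611303, minus strand, GRCm38) had 4 counts with rotenone and 0, 1 and 6 counts in DMSO replicates 1, 2 and 3. These counts correspond to 0.197 CPM with rotenone (exact 95% Poisson interval 0.0537 to 0.505) and 0.0821 CPM over the pooled DMSO libraries (0.033 to 0.169), intervals that cover counting error only. The intervals overlap, and a difference of Gatm was not detectable at this depth.

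Gamt (ENSMUSG00000020150.13, chromosome 10, 80258151 to 80261012, minus strand), the second enzyme of the same route, had 61.8 CPM with rotenone and 28.1, 25.8 and 25.2 CPM in DMSO. The rotenone library held more than 2-fold the level of each DMSO library. Gamt rose by 1.23 ± 0.10 (95% interval 1.02 to 1.44, adjusted p = 5e-09 by edgeR). Its annotated transcript is short, at 988 bases. The median log2 difference of all genes in the same length decile was 0.21, and Gamt gave 1.01 ± 0.10 after correction for length and GC content (adjusted p = 8.6e-08 by edgeR).

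Slc6a8 (ENSMUSG00000019558.14, chromosome X, 73673150 to 73682502, plus strand), the creatine importer of the plasma membrane, had 66.9 CPM with rotenone and 38.4, 37.6 and 42.5 CPM in DMSO. The 4 values do not overlap between groups. Slc6a8 rose by 0.76 ± 0.09 (adjusted p = 1.4e-06 by edgeR). Slc22a5, a carnitine carrier listed beside it, gave -0.09 ± 0.13 and did not pass the threshold (adjusted p = 0.57 by edgeR). Slc16a12, a monocarboxylate-type carrier that moves creatine in human cells, had 1 count with rotenone and 4, 6 and 0 counts in DMSO and was not tested.

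Creatine kinase transcripts were nearly all Ckb, the brain-type enzyme. Ckb (ENSMUSG00000001270.9, chromosome 12, 111669361 to 111672338, minus strand) had 39.8 CPM with rotenone and 49.7, 54.8 and 49.1 CPM in DMSO. The rotenone value lies under the lowest DMSO value. Ckb fell by 0.36 ± 0.10 on the log2 scale (95% interval -0.57 to -0.16, adjusted p = 0.0042 by edgeR), the smallest called difference among the members.

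Ckmt2 (ENSMUSG00000021622.3, chromosome 13, 91853387 to 91876885, minus strand), the sarcomeric mitochondrial creatine kinase, had 0 counts in the rotenone library and in all 3 DMSO libraries. The floor, set at 3 counts per library, was 0.148 CPM with rotenone and 0.101 to 0.112 CPM in a DMSO library. For a count of 0, the exact 95% Poisson interval used for Gatm reaches 0.182 CPM with rotenone and 0.125 to 0.138 CPM in DMSO. The other mitochondrial isoform, Ckmt1, had 3 counts with rotenone and 9, 0 and 0 in DMSO. Ckm, the muscle kinase, had 0 counts with rotenone and 1, 0 and 0 in DMSO. Per exon length, Ckb made up 99.7% of the 4 kinases with rotenone and 99.8 ± 0.32% in DMSO (SD, n = 3). A mitochondrial creatine kinase transcript was thus at or near the limit of detection in both groups.

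The start regions of Gamt, Ckb and Ckmt2 are shown because these genes had the largest rise, the one called fall and no count at all. Each runs from 250 bases before the annotated start to 50 bases after it, 5′ to 3′ on the strand of the gene, which is the minus strand for all 3. The sequences are from RefSeq on GRCm38.p6. They lie at chr10:80260963-80261262 (Gamt), chr12:111672289-111672588 (Ckb) and chr13:91876836-91877135 (Ckmt2). Capitals mark matches, on either strand, to the motifs named after the sequences.
Gamt: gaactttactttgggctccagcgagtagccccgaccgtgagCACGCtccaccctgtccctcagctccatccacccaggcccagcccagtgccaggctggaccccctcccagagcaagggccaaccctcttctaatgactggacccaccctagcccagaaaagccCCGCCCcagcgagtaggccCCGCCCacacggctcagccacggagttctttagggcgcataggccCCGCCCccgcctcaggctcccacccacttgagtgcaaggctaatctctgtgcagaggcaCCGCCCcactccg
Ckb: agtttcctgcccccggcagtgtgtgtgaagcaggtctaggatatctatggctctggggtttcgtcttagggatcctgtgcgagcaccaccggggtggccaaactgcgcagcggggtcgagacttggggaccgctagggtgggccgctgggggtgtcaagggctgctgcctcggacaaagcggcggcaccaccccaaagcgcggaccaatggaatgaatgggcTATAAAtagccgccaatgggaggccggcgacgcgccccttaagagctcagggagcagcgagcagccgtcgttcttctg
Ckmt2: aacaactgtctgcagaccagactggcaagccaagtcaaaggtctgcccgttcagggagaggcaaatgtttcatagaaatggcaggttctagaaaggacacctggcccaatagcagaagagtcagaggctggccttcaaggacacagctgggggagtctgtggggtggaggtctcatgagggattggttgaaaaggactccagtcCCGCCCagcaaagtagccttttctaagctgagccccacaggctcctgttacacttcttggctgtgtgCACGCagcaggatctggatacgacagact
Of the 8 genes, 5 had such a region in the table used, namely Gatm, Gamt, Ckb, Ckmt2 and Alpl, the last with 2 starts; Slc6a8, Atp2a2 and Itpr1 had none. The TATA box TATAAA stood 28 bases before the start of Ckb, and 13.6% of all 32851 regions of this length held one. Gamt had no TATA box but 4 GC boxes (GGGCGG, read as CCGCCC here), a motif found in 35.7% of regions. Ckmt2 held 1 GC box, and Ckb and Gatm held none. Of the 2 Alpl starts, 1 held 3 GC boxes, and the other a TATA box on the opposite strand, 192 bases before the start. The HIF core, ACGTG or GCGTG, was found at 1 place each in Gamt and Ckmt2, at 2 places in Gatm and in neither Ckb nor Alpl; 43.8% of all regions held it. The ERR element TCAAGGTCA (0.423% of regions), the C/EBP-ATF element TTGCATCA (0.895%) and the ER stress element, CCAAT and CCACG with 9 bases between (0.119%), had no match in the 5 genes. Ckmt2 had 4 CG dinucleotides in this window, against 22 in Ckb and 14 in Gamt. Gatm, nearly without counts, also had 22, and the 2 starts of Alpl had 26 and 4. A match is a string of letters and does not show binding.

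Alpl (ENSMUSG00000028766.10, chromosome 4, 137741733 to 137796384, minus strand), the phosphatase assigned to the hydrolysis of phosphocreatine in mouse thermogenic fat, had 48.0 CPM with rotenone and 31.4, 29.7 and 26.3 CPM in DMSO. Its rotenone value lies above every DMSO value, and its DMSO values were the most spread of the tested members, with a coefficient of variation of 8.92%. Alpl rose by 0.72 ± 0.11 (adjusted p = 1.7e-05 by edgeR) and gave 0.58 ± 0.11 after the length and GC correction. RefSeq places 2 start regions for Alpl, and counts per gene do not tell which was used.

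Other phosphatases were described beside it. Phospho1, which acts on phosphocholine and phosphoethanolamine, had 471 CPM per kilobase of exons with rotenone and 411 ± 13.9 in DMSO (SD, n = 3), far above Alpl at 19.0 with rotenone and 11.6 ± 1.03 in DMSO on the same scale. Phospho1 rose by 0.20 ± 0.06 (adjusted p = 0.013 by edgeR), a call lost with scaling by library size only (0.08) and after the length and GC correction (0.02). Phospho2 rose by 0.47 ± 0.11 (adjusted p = 0.0015 by edgeR). The alkaline phosphatase genes Alpi, Akp3 and Alppl2 had 0 counts in all 4 libraries. Alpl also marks bone-forming cells. Of 5 osteoblast markers, Runx2 rose by 1.31 ± 0.13 (32.6 CPM with rotenone, 12.8 to 13.5 CPM in DMSO), Ibsp and Dmp1 had 0 counts throughout, Bglap had 2 counts with rotenone and at most 1 in DMSO, and Sp7 had 2 counts with rotenone and 2 to 9 in DMSO.

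**Figure D2:**
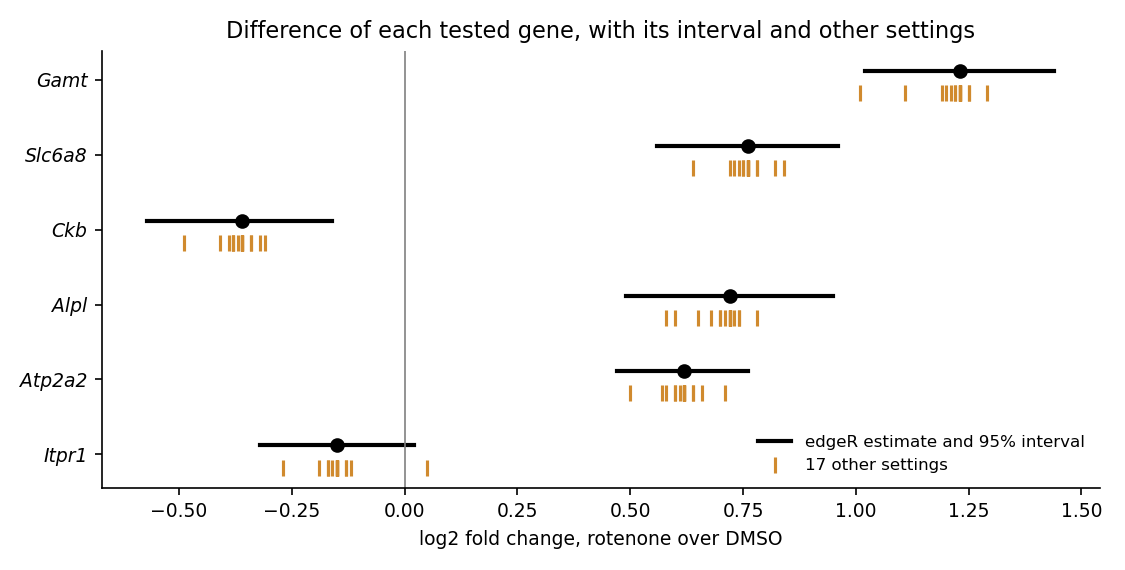
Log2 fold change of rotenone over DMSO for the 6 tested genes (horizontal axis). Black points and bars are the edgeR estimate and its 95% interval, and orange ticks are the values under 17 other settings. The ticks of Gamt, Slc6a8, Alpl and Atp2a2 stay above 0 and those of Ckb below 0, while those of Itpr1 lie between -0.27 and 0.05.

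Among genes of calcium cycling, the pump rose and the channel did not pass the threshold. Atp2a2 (ENSMUSG00000029467.15, chromosome 5, 122453513 to 122502225, minus strand), which encodes SERCA2, had 335 CPM with rotenone and 229, 206 and 221 CPM in DMSO. All DMSO values lie well below the rotenone value. Atp2a2 rose by 0.62 ± 0.07 (adjusted p = 3.8e-07 by edgeR), and by 0.71 ± 0.07 after the length and GC correction. The median over all genes of its length decile was -0.20. The annotation places Gm43359 and Gm43360 on the strand of Atp2a2 and Gm43361 opposite to it. The sources used here do not say whether reads of overlapping genes were told apart.

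Itpr1 (ENSMUSG00000030102.11, chromosome 6, 108213096 to 108551109, plus strand) had 68.0 CPM with rotenone and 78.0, 75.3 and 73.2 CPM in DMSO. The rotenone value is the lowest of the 4, close under the lowest DMSO value. Its log2 fold change was -0.15 ± 0.08 (95% interval -0.32 to 0.02, adjusted p = 0.12 by edgeR), so a fall to 0.802-fold or a rise to 1.01-fold would both lie within the interval. Itpr1 has the longest transcript of the members, 9870 bases, in a decile with a median of -0.25. Corrected for length and GC content, its value turned to 0.05 ± 0.08 (adjusted p = 0.58 by edgeR). With scaling by library size only the value was -0.27 and passed the threshold (adjusted p = 0.0076 by edgeR), as it did with upper quartile scaling (-0.19, adjusted p = 0.048 by edgeR).

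The shares of the pump and channel isoforms lay outside the DMSO range with rotenone, for Atp2a2 and for Itpr1. Per exon length, Atp2a2 made up 62.5% of SERCA transcripts with rotenone and 54.5%, 55.6% and 57.7% in DMSO, above all DMSO values. The rest was mostly Atp2a3 (SERCA3), at 37.3% with rotenone and 43.7 ± 1.5% in DMSO (SD, n = 3). Atp2a3 gave 0.22 ± 0.08 (adjusted p = 0.033 by edgeR), a call lost without DMSO replicate 2 (0.19), without DMSO replicate 3 (0.18), and with scaling by library size only (0.10). Atp2a1, the pump of fast muscle, had 0.739 CPM with rotenone and 0.562 to 1.01 CPM in DMSO and gave -0.22 ± 0.69 (adjusted p = 0.8 by edgeR). Itpr1 made up 39.3% of IP3 receptor transcripts per exon length with rotenone and 34.4%, 33.7% and 33.3% in DMSO. Itpr2, the most abundant of the 3, fell by 0.56 ± 0.07 on the log2 scale (adjusted p = 1.7e-06 by edgeR), with 112 CPM with rotenone and 164 to 168 CPM in DMSO. Itpr3 gave 0.30 ± 0.20 and did not pass (adjusted p = 0.22 by edgeR). It was called higher after the length and GC correction (0.78) and with every file taken as a library (0.28). The latter setting enters the same rotenone counts 3 times, so its calls rest on no added replicate.

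**Figure D3:**
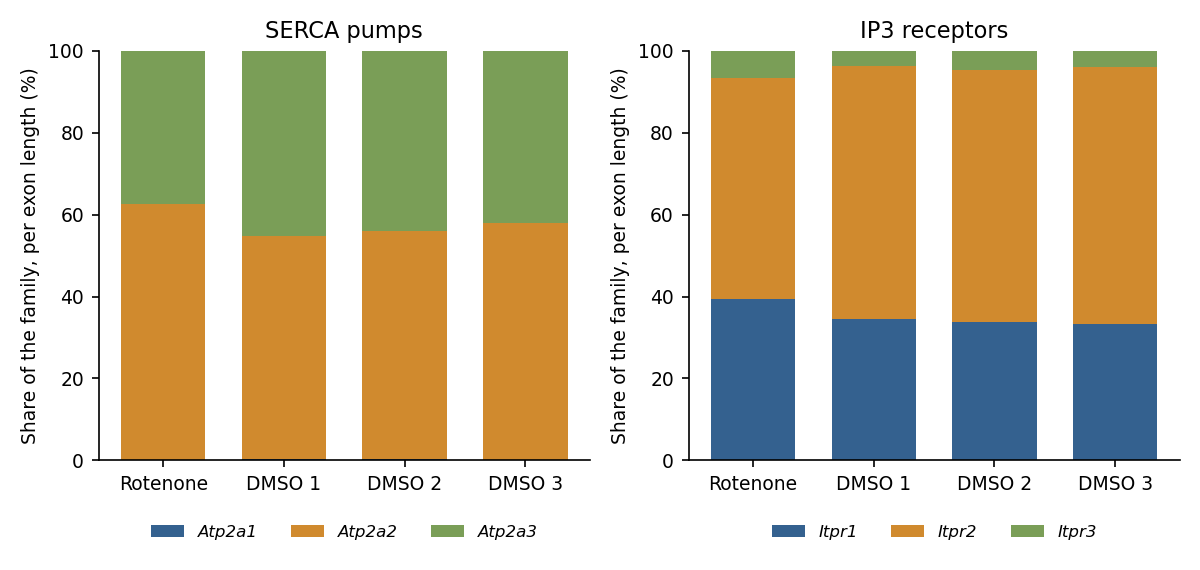
Share of each isoform among SERCA pump transcripts (left) and IP3 receptor transcripts (right), in percent of the family's CPM per kilobase of exons, for the rotenone library and each DMSO library. Atp2a2 takes 62.5% with rotenone and 54.5% to 57.7% in DMSO, and Itpr1 takes 39.3% with rotenone and 33.3% to 34.4% in DMSO.

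Ryanodine receptors, the release channels of muscle, were almost without counts. Ryr2 and Ryr3 had 0 counts in all 4 libraries, and Ryr1 had 2 counts with rotenone and 1, 2 and 0 in DMSO. Sln (sarcolipin), a small peptide that uncouples SERCA in muscle, had 0 counts throughout. Pln (phospholamban) had 6 counts with rotenone and 4 in each DMSO library. Strit1 and Thbs4 also had 0 counts, and Mrln had 0 with rotenone and 1, 0 and 0 in DMSO. Over the 4 libraries together, the floor of 3 counts was 0.0284 CPM, and the exact 95% Poisson interval of a count of 0 reaches 0.035 CPM.

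On the scale of CPM per kilobase of exons, on which levels of different genes can be compared, the members ranked as follows, with lengths of merged exons in the basic annotation. With rotenone, Atp2a2 stood at 63.5, Gamt at 59.6, Ckb at 27.0, Alpl at 19.0, Slc6a8 at 16.9 and Itpr1 at 6.89. In DMSO (mean ± SD, n = 3) the order was Atp2a2 at 41.4 ± 2.27, Ckb at 34.8 ± 2.12, Gamt at 25.4 ± 1.48, Alpl at 11.6 ± 1.03, Slc6a8 at 9.97 ± 0.67 and Itpr1 at 7.65 ± 0.24. With these lengths, Gamt was above Ckb in the rotenone library and below it in every DMSO library. That order depends on the length taken for Ckb, 1472 bases here. With its longest annotated transcript of 2839 bases, which the annotation calls a retained intron form, Ckb came to 14.0 with rotenone and 17.3 to 19.3 in DMSO, below Gamt in both groups (62.5 with rotenone, 25.5 to 28.4 in DMSO, likewise per longest transcript), and Gamt also passed Atp2a2 (59.1) with rotenone. Alpl (10.4 to 12.5) and Slc6a8 (9.49 to 10.7) overlapped in DMSO and cannot be ordered, whereas the other neighbours in this order, on merged exon lengths, did not overlap. Gatm was at 0.0825 with rotenone and at 0 to 0.094 in DMSO on this scale.

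**Figure D4:**
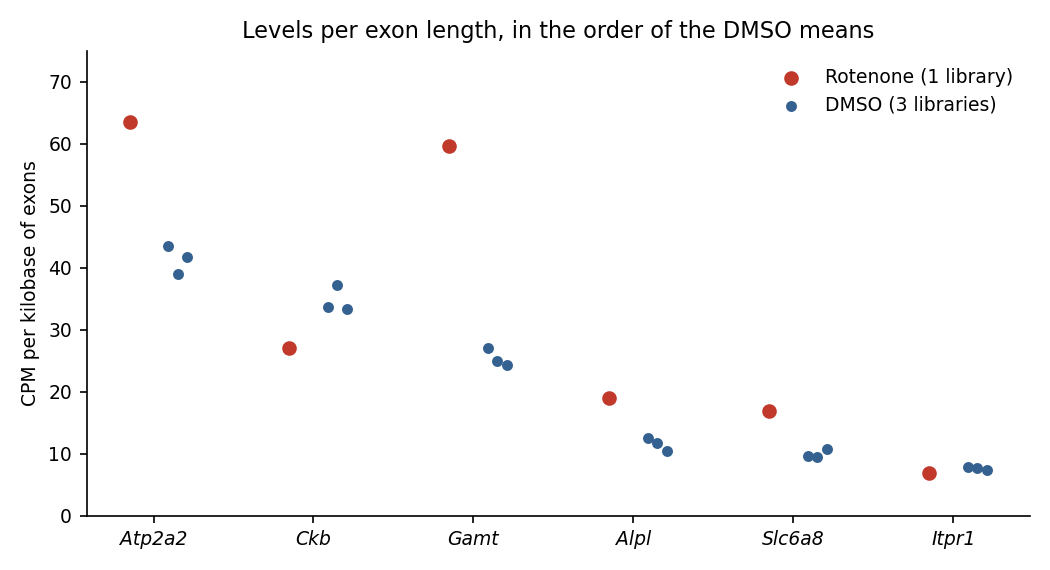
CPM per kilobase of exons (vertical axis, from 0) of the 6 tested genes in the rotenone library (red) and the 3 DMSO libraries (blue), in the order of the DMSO means. Gamt lies above Ckb in the rotenone library, at 59.6 against 27.0, and below it in DMSO, at 25.4 against 34.8, on merged exon lengths; with the longest transcript Ckb would lie below Gamt in both.

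Genes around the 2 cycles were described by 12 lists. Apart from the members, 120 such genes were found, 96 were tested, and 34 were higher and 25 lower with rotenone, with a median log2 fold change of 0.09 beside -0.04 over all genes. These shares, 35.4% higher and 26% lower, stand beside 27.6% and 28.5% of all tested genes.

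Genes listed under arginine, glycine and methyl supply were mostly higher. Of 15 tested, 10 rose and 2 fell, with a median of 0.57, beside 27.6% and 28.5% of all tested genes. The 10 include Pemt (0.74 ± 0.20) and Nnmt (0.47 ± 0.09), which use the methyl donor S-adenosylmethionine and do not supply it. Nnmt lost its call after the length and GC correction (0.17). Ass1, argininosuccinate synthase, rose by 1.77 ± 0.25 (adjusted p = 8.7e-06 by edgeR), with 11.5 CPM with rotenone and 2.47 to 4.36 CPM in DMSO. The glycine transporter gene Slc6a9 rose by 1.29 ± 0.11 and the arginine transporter gene Slc7a1 by 1.27 ± 0.08. Ahcy, which clears the S-adenosylhomocysteine that Gamt and other methyltransferases release, rose by 0.80 ± 0.06. The 2 that fell were Asl, argininosuccinate lyase, by 0.96 ± 0.12 and Mat2a, which makes the methyl donor S-adenosylmethionine, by 0.77 ± 0.07 on the log2 scale. These genes also serve the urea cycle, folate metabolism and methylation in general. With a coefficient of variation of 20% assumed, 4 of them were higher and 1 lower, beside 1408 and 2063 of all 14709 tested genes.

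On the calcium side, genes of the ER lumen and of mitochondrial uptake were called in both directions. Beside them, 27.6% of all tested genes were called higher and 28.5% lower. With the 20% coefficient of variation, 1408 of all 14709 tested genes were higher and 2063 lower. Of 9 tested calcium buffers of the ER lumen, 5 rose and 1 fell (median 0.28; 3 and 1 with the 20% coefficient of variation). Rcn3 (reticulocalbin 3) rose by 1.46 ± 0.12, Calr (calreticulin) by 1.13 ± 0.06, Rcn1 by 0.97 ± 0.10, Canx (calnexin) by 0.49 ± 0.07 and Hsp90b1 by 0.28 ± 0.07. Casq1, the 1 that fell, had 0 counts with rotenone and 11, 11 and 13 counts (0.371 to 0.487 CPM) in DMSO. Its DMSO mean of 0.413 CPM was 2.79-fold the rotenone floor of 3 counts, 0.148 CPM. The Casq1 call was lost at a threshold of 0.01 and in the test against a 1.5-fold change. Several of the ER genes that rose also act as chaperones. Of 13 tested genes of mitochondrial calcium uptake and release, 6 rose and 3 fell (median 0.11; 2 and 0 with the 20% coefficient of variation). Smdt1, the EMRE subunit of the uniporter, rose by 0.87 ± 0.07, Vdac2 by 0.83 ± 0.06, Letm1 by 0.74 ± 0.10 and Mcu, its pore, by 0.55 ± 0.09. Mcur1 fell by 0.51 ± 0.09, Micu2 by 0.35 ± 0.08 and Slc8b1, the sodium-calcium exchanger of mitochondria, by 0.30 ± 0.12 on the log2 scale, the last not past the threshold without DMSO replicate 2 (-0.25) or with DESeq2 (-0.28).

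Of 13 tested release channels and their regulators, 3 rose and 2 fell (median -0.05), beside 27.6% and 28.5% of all tested genes. With scaling by library size only, and likewise after the length and GC correction, 5 fell. Of all 14709 tested genes, 5153 and 4061 were lower at these settings. The 20% coefficient of variation gave 1408 higher and 2063 lower among all tested genes. Fkbp1a, a binding partner of release channels, rose by 1.25 ± 0.07, Tmbim6 by 0.67 ± 0.06 and Tmco1, a calcium leak channel, by 0.34 ± 0.07, and Itpr2 was among those that fell. Of 5 tested genes listed with the SERCA pumps, 3 rose and the other 2, Atp2a1 and Tmx1, did not pass. The 3 were Atp2a2, Atp2a3 and Sarnp, at 0.30 ± 0.10, whose product is a nuclear RNA-binding protein and no pump regulator. Only Atp2a2 of these was called with scaling by library size only. Tmx1, a thioredoxin-related ER protein that inhibits SERCA2b, gave -0.68 ± 0.30 and did not pass (adjusted p = 0.15 by edgeR), with 33.9 CPM with rotenone and 41.7 to 60.9 CPM in DMSO. It was called lower without DMSO replicate 1 (-0.84), with no filter, with a non-robust prior, with limma-voom (adjusted p = 0.012) and with every file taken as a library. Of 9 tested genes of store-operated entry, 2 rose and 2 fell (median 0.14; 0 and 2 with the 20% coefficient of variation). The channel gene Orai3 fell by 2.10 ± 0.15 on the log2 scale, with 8.38 CPM with rotenone and 33.3 to 39.9 CPM in DMSO (adjusted p = 1.1e-09 by edgeR), and Cracr2b, at 0.246 CPM with rotenone and 1.18 to 1.42 CPM in DMSO, also fell. Saraf rose by 0.31 ± 0.07. Orai1 rose by 0.65 ± 0.23, a call lost without DMSO replicate 2 (0.48) and with DESeq2 (0.67, adjusted p = 0.065). The Orai1 call was also lost with scaling by library size only (0.53) and after the length and GC correction (0.47). A threshold of 0.01 and the test against a 1.5-fold change lost it too. Of 6 tested export genes, Slc24a3 rose by 0.54 ± 0.10, and Atp2c1 and Atp2b1 fell by 0.42 ± 0.12 and 0.40 ± 0.13 on the log2 scale, both to -0.22 and no call after the length and GC correction.

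Genes upstream and downstream of calcium were called in both directions, beside 27.6% of all tested genes called higher and 28.5% called lower. With the 20% coefficient of variation, 1408 of all 14709 tested genes were higher and 2063 lower. Of 10 tested genes of alpha-1 adrenergic and Gq input, 2 rose and 5 fell (median -0.25; 2 higher and 1 lower with the 20% coefficient of variation). Adra1d fell by 1.94 ± 0.21 on the log2 scale, with 3.70 CPM with rotenone and 13.5 to 15.5 CPM in DMSO (adjusted p = 2.1e-07 by edgeR). Plcb3, Plcb4, Plcg1 and Gnaq, which link such receptors or growth factor receptors to IP3, fell by 0.84 ± 0.08, 0.76 ± 0.15, 0.48 ± 0.08 and 0.39 ± 0.10. The 2 that rose were scarce. Adra1b had 2.36 CPM with rotenone and 0.574 to 0.865 CPM in DMSO, and Plcg2 had 0.739 CPM with rotenone and 0.0346 to 0.112 CPM in DMSO, a call lost with DESeq2 (adjusted p = 0.053). Adra1a, the receptor tied to the creatine cycle in mouse brown fat, had 0 counts with rotenone and 4, 0 and 2 in DMSO. Of 16 tested calcium-activated kinases and phosphatases with their regulators, 1 rose and 8 fell (median -0.28; 0 higher and 4 lower with the 20% coefficient of variation). Camk2b gave -3.87 ± 0.37, Camk2a -2.96 ± 0.27 and Camk1d -1.13 ± 0.16, all called lower, and Camk1 rose by 0.71 ± 0.08. Camk2b had 0.542 CPM with rotenone and 6.99 to 9.32 CPM in DMSO. Camk2d, at 73.4 CPM with rotenone and 70.6 to 80.7 CPM in DMSO, gave -0.03 ± 0.09 and did not pass (adjusted p = 0.76 by edgeR).

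**Figure D5:**
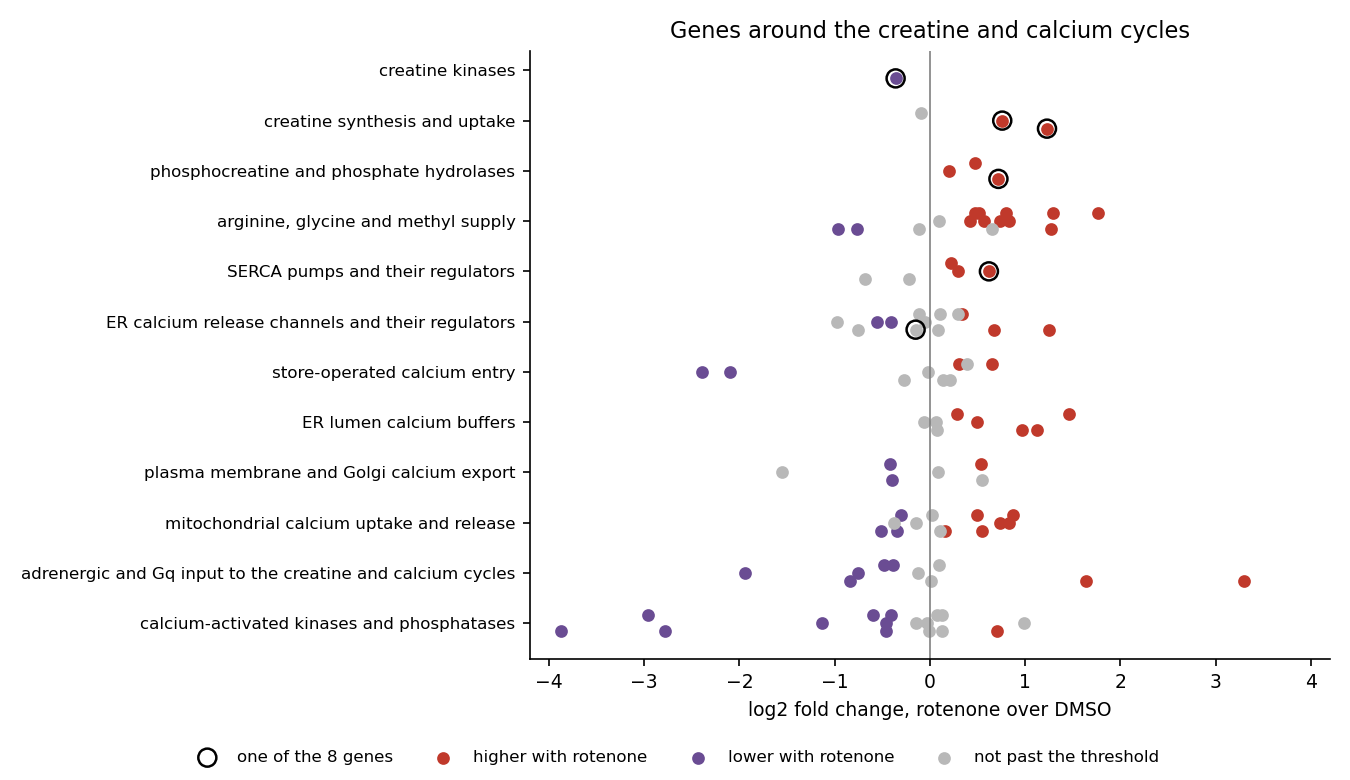
Log2 fold change of rotenone over DMSO (horizontal axis) for every tested gene of 12 lists around the creatine and calcium cycles, except Casq1, which had 0 counts with rotenone. Red points were higher, violet points lower and grey points not past the threshold, and black rings mark genes among the 8; Camk2b lies farthest to the left, at -3.87.

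Markers of other cells moved with rotenone as well, beside 27.6% of all tested genes called higher and 28.5% called lower. The summed level of 10 preadipocyte and fibroblast markers was 4533 CPM with rotenone and 1859 to 2088 CPM in DMSO, with 6 of 9 tested higher and 1 lower. Most of this sum came from collagen genes, with Col1a1 at 2121 CPM and Col1a2 at 1666 CPM with rotenone. The 1 called lower was Pdgfra, at 9.07 CPM with rotenone and 18.5 to 20.7 CPM in DMSO. The summed level of 7 fat cell markers was 7979 CPM with rotenone and 9036 to 9981 CPM in DMSO, with 5 of 7 lower. Fabp4 held most of this sum, at 5306 CPM with rotenone, and did not pass (0.05 ± 0.07). With the 20% coefficient of variation, 0 of the 7 were higher and 1 lower, and likewise for brown fat markers. At that setting 6 preadipocyte and fibroblast markers were higher and 1 lower, and 4 smooth muscle markers were higher. Over all 14709 tested genes it gave 1408 higher and 2063 lower. Of 5 tested brown fat markers 3 rose and Ucp1 fell. With scaling by library size only 1 rose, and after the length and GC correction 1 rose and 2 fell. Among all 14709 tested genes, 3245 rose and 5153 fell at the first setting, and 3970 and 4061 at the second. The sums of the brown fat markers were 1179 CPM with rotenone and 1118 to 1253 CPM in DMSO. Of 5 smooth muscle markers 4 rose, with sums of 1587 CPM with rotenone and 278 to 317 CPM in DMSO. Myh11 gave -0.60 ± 0.36 and did not pass, with 1.92 CPM with rotenone and 2.51 to 3.58 CPM in DMSO. The part of these shifts in the values of Gamt, Slc6a8, Ckb, Alpl and Atp2a2 was not tested, and in bulk RNA a change in the number of cells of a type and in the RNA per cell cannot be told apart. For skeletal muscle, whose cells are rich in Ckm, Ckmt2 and Atp2a1, Myod1, Myh1, Myh2, Myh4 and Tnni2 had 0 counts in all 4 libraries, while Acta1 had 6.65 CPM with rotenone and 0.138 to 0.304 CPM in DMSO. Of 4 macrophage markers Adgre1 and Ptprc had 0 counts, Csf1r had 0 counts with rotenone and 2, 4 and 3 in DMSO, and Cd68 rose by 2.38 ± 0.23. Sums of 4 endothelial markers were 1.03 CPM with rotenone and 0.187 to 0.623 CPM in DMSO.

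Over the 4 libraries, the gene with the profile nearest to each member was found among 10877 genes of at least 5 CPM, as the Euclidean distance of log2 levels set to the DMSO mean. It was Timm10 for Gamt (distance 0.034), Mllt11 for Slc6a8 (0.010), Zfp503 for Ckb (0.026), Alyref for Alpl (0.036), Gpank1 for Atp2a2 (0.015) and Isoc1 for Itpr1 (0.005). Micu2, the mitochondrial calcium uptake regulator, was the third nearest to Ckb, at 0.035. With 1 rotenone library and 3 DMSO libraries such nearness describes these profiles and no more.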

How the data were processed

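RNA-seq libraries of differentiated brown adipocytes were made from total RNA with a NEBNext Ultra kit, per the labels' protocols. The authors deposited raw counts, 1 whole number for each gene symbol; TopHat2 and mm10 are named in the submitters' processing notes. The sources used here do not give the counting program, annotation, strand setting or treatment of multi-mapped reads. The files carry no header.

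Files with identical counts entered once, which left 1 rotenone and 3 DMSO libraries. Nothing says whether the DMSO libraries came from separate cultures, so p-values measure only the spread between them, which may be technical. edgeR 4.0.16 in R 4.3.3 was used with TMM scaling, the default filterByExpr and a robust quasi-likelihood F test of group, with 2 residual degrees of freedom. Benjamini-Hochberg adjustment ran over 14709 genes. The standard error is the log2 fold change divided by the square root of F. No list was tested as a set. Exon length is that of merged exons of the basic GENCODE set on GRCm38. The length and GC correction used 8 by 8 bins of the longest transcript of any annotated type, known for 96.5% of tested genes. Alternatives were limma-voom (limma 3.58.1), DESeq2 1.42.0, and scaling by median ratio, by upper quartile or by library size only. Others were no filter, a filter of at least 1 CPM, leaving out each DMSO library in turn, and every file taken as a library. The rest were a non-robust prior, a 20% coefficient of variation, a test against a 1.5-fold change and leaving out the gene Rn45s. The length and GC correction and a threshold of 0.01 completed the set.

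The members and lists were chosen with earlier results of these data known. Of 131 listed symbols, 2 were not found. All members are described. From each list, up to 4 called genes of at least 5 CPM were named by size, with relatives of the members whatever their value. Slc22a5, Slc16a12, Ahcy, Mat2a, Pemt, Nnmt, Hsp90b1, Casq1, Mcur1, Micu2, Slc8b1, Tmco1, Cracr2b, Gnaq, Adra1b, Plcg2, Camk2d, Tmx1, Mrln, Strit1, Thbs4, Alpi, Akp3, Alppl2 and the TATA and GC boxes were named after their values were seen. No gene was deleted or knocked down in this design. Listed genes not named in the text enter the counts of their list and are not reported singly here.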

Additional observations from a re-analysis of the deposited data

How the results depend on the processing

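For the 6 tested members, 17 alternatives gave 102 values, of which 90 kept direction and call. The call was lost in 8, gained in 3 and the sign turned in 1, which was Itpr1 at 0.05 after the length and GC correction. Gamt kept its call throughout, between 1.01 and 1.29. Slc6a8 (0.64 to 0.84), Ckb (-0.49 to -0.31), Alpl (0.58 to 0.78) and Atp2a2 (0.50 to 0.71) each lost it with the 20% coefficient of variation and in a test against a 1.5-fold change, and in none of the others. In both of these settings 1 member was higher and 0 lower. Itpr1 gained a call, making 2 members lower, with upper quartile scaling, with scaling by library size only and with every file taken as a library. The last of these enters the same rotenone counts 3 times and adds no replicate. Under it the standard error of Itpr1 was 0.03 in place of 0.08. Counts over all genes were 1408 higher and 2063 lower with the 20% coefficient of variation, and 1203 and 1731 against a 1.5-fold change, beside 4054 and 4197. Scaling by library size only gave 3245 higher and 5153 lower and moved the median of all genes from -0.04 to -0.16; every called member kept its sign. Leaving out each DMSO library changed no member's call. No paired analysis was possible because the rotenone group holds 1 distinct library, so that its replicate numbers mark no separate samples. With 1 rotenone library the spread between rotenone cultures is unknown. The depth limits Gatm, at 6 counts or fewer per library, and Ckmt2, at 0 in each. Per longest transcript in place of merged exons, a setting chosen after seeing the data, the DMSO level was 18 CPM per kilobase for Ckb and 38.5 for Atp2a2.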
